A study of Mus musculus with 14 samples.

Results

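Polycomb subunit genes encode the proteins of the complexes that BMI1 belongs to and that place the histone mark H2AK119ub. The 9 genes examined were Bmi1, Ring1, Rnf2, Cbx2, Cbx8 and Pcgf2 of Polycomb repressive complex 1 (PRC1), and Ezh2, Jarid2 and Suz12 of Polycomb repressive complex 2 (PRC2). They were chosen by symbol, as subunit genes, out of 21887 protein-coding genes in the annotation, and the question was whether Polycomb genes carry their own protein and mark. A gene was said to carry a peak when a peak touched the gene or the 5 kb flanking it on each side.

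The assay was ChIP-seq with antibodies to BMI1 or to H2AK119ub on Sca1+CD45- cardiac cells. The C57BL/6 mice were 6 to 8 weeks old. Damage mice received paraquat, a redox-cycling herbicide, in PBS at 20 mg/kg, once and intraperitoneally, and Homeostasis mice received PBS. No genetic change is named for either group, and the time between dose and harvest is not given in the sources used here. There were 3 libraries for every treatment with either antibody, 12 in all, each with a peak list of its own. Nothing in the labels says that replicates are separate mice or that mice were pooled. The p-values below therefore measure only the spread between these libraries, which may be technical. Cells were fixed in suspension after isolation; a culture step at low oxygen is also described, and whether it preceded fixation is not clear from the labels. Peak lists hold no expression values, so the labelled cell type could not be checked against its markers.

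In PRC1, a RING-type ubiquitin ligase, RING1 or RNF2 (RING1B), pairs with a PCGF protein such as BMI1 (PCGF4) or PCGF2 (MEL18) and adds ubiquitin to histone H2A. CBX2 and CBX8 are chromodomain subunits that bind the methylated histone H3 left by PRC2. In PRC2, EZH2 is the methyltransferase, SUZ12 holds the core complex together and JARID2 helps bring the complex to chromatin. Polycomb complexes are best known at CpG-rich promoters of developmental genes, and genes for their own subunits have been described among their targets in other cells.

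All start sites below come from the RefSeq promoter table of GRCm38.p6, which matched 8 of the 9 genes (9 start sites). The 250 bases before the start of Bmi1, the gene of the immunoprecipitated protein, and of Jarid2, the gene with the most peaks, are shown because Polycomb occupancy is usually sought in such sequence. Capitals mark CG dinucleotides, which read the same on both strands. There are 21 in the Bmi1 stretch (chr2:18676768-18677017, plus strand) and 23 in the Jarid2 stretch (chr13:44730524-44730773, plus strand).
Bmi1: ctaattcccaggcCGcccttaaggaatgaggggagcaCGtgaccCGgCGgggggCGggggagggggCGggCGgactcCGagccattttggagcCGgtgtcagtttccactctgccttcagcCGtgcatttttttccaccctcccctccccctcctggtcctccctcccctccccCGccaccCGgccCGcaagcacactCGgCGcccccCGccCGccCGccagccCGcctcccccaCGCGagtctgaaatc
Jarid2: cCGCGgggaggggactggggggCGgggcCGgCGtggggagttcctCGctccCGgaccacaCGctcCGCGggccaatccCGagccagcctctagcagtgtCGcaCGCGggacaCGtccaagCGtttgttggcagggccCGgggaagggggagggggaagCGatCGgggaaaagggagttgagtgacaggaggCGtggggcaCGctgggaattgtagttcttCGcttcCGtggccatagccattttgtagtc
Over the tabulated 300 bases (250 before to 50 after the start), the member promoters held 10 to 41 CG dinucleotides, with a median of 24. The median of all 21263 start sites of protein-coding genes was 13, and 95.4% of them held at least 1. Suz12 had the most (41) and Pcgf2 the fewest (10), the latter being the only member start below the median of all. The listed Pcgf2 start (97699648, minus strand) lies inside the gene, whose start-side boundary is 97702434. Its count therefore need not hold for sequence at that boundary. No peak of any of the 12 lists lay within 5 kb of a member start site (0 of 8 genes). Of 17492 protein-coding genes with a listed start site, 3.06% had a Homeostasis BMI1 peak and 4.76% a Homeostasis H2AK119ub peak within that distance in 1 or more libraries. With either antibody the share was 5.23%, and after damage it was 0.0515%, so that a count of 0 of 8 does not separate the members from other genes.

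At homeostasis, Ezh2 and Jarid2 carried peaks of both antibodies, and the 7 other genes carried none. Ezh2 had 1 peak in each of the 3 BMI1 libraries, and it had 0, 1 and 1 peaks in H2AK119ub replicates 1, 2 and 3. Jarid2 had 2, 2 and 3 BMI1 peaks and 1, 2 and 2 H2AK119ub peaks, so that it was marked in all 6 lists. Bmi1, the gene of the immunoprecipitated protein, had 0 peaks in every list, as had the ligase genes Ring1 and Rnf2, the chromodomain genes Cbx2 and Cbx8, the Bmi1 paralogue Pcgf2 and the PRC2 scaffold gene Suz12. The unmarked genes lie on chromosomes 2 (Bmi1, 18677018 to 18686629), 17 (Ring1, 34020792 to 34024680) and 1 (Rnf2, 151469398 to 151500991), and on chromosome 11. The last holds Suz12 (79993106 to 80034123), Pcgf2 (97688821 to 97702434), Cbx2 (119023019 to 119031275) and Cbx8 (119036303 to 119040913). The H2AK119ub list without the Ezh2 peak, replicate 1, was the shortest of the 6, with 2000 peaks against 4072 to 13487 in the others. No sequencing depth is known for any list.

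**Figure D1:**
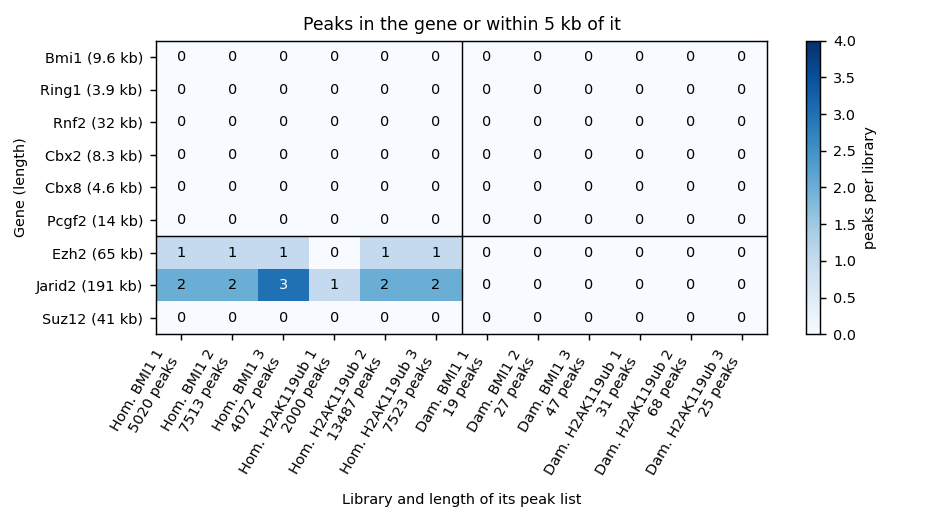
Number of peaks on the gene and its 5 kb flanks (cell number and colour) for 9 Polycomb subunit genes (rows, PRC1 above the line and PRC2 below it) in 12 libraries (columns, Homeostasis left of the line and Damage right of it, with the length of each list). Ezh2 holds 0 or 1 and Jarid2 1 to 3 peaks per Homeostasis library, and all other cells are 0.

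In a single Homeostasis library 1 or 2 of the 9 members carried a peak. The share of all protein-coding genes with a peak was 7.48%, 10.3% and 6.46% in BMI1 replicates 1, 2 and 3, and 3.32%, 16.7% and 10.4% in H2AK119ub replicates 1, 2 and 3. With any Homeostasis library counted it was 2 of 9 members against 19.3% of genes.

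With 2 of 9 members marked in 2 or more of 3 libraries for each antibody, the share is to be read against all protein-coding genes, of which 7.34% were so marked for BMI1 and 9.63% for H2AK119ub. With a peak in 1 library sufficient, the count was again 2 of 9, against 12.4% and 17.8% of all genes. With 3 of 3 libraries required, the count was 2 for BMI1 (4.45% of genes) and 1, Jarid2, for H2AK119ub (2.92% of genes). A peak in at least 5 of the 6 lists, as in Ezh2, was found in 4.63% of genes, and a peak in all 6, as in Jarid2, in 2.55%. Peaks were more frequent in long genes, and Jarid2 (190.87 kb) and Ezh2 (64.997 kb) are the longest members. In the tenth of protein-coding genes that holds Jarid2, 33.7% were marked for BMI1 and 41.8% for H2AK119ub in 2 or more libraries. A peak in 5 or more lists was found in 23.3% of that class and a peak in all 6 in 13.2%. In the tenth that holds Ezh2, BMI1 marked 10.9% and H2AK119ub 15.9% of genes in this way, with 6.58% in 5 or more lists and 3.33% in all 6. In the tenth that holds Bmi1 (9.612 kb) and Cbx2 (8.257 kb) BMI1 and H2AK119ub marked 3.11% and 3.84%, so that genes of the length of Bmi1 seldom held a peak. The shares of the members' own length classes add up to 0.708 genes for BMI1 and 0.922 for H2AK119ub, beside the 2 found for each. With a peak in 1 library sufficient, they add up to 1.18 for BMI1 and 1.69 for H2AK119ub, beside the same 2. Since the members were chosen with earlier results known, these differences have no test.

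**Figure D2:**
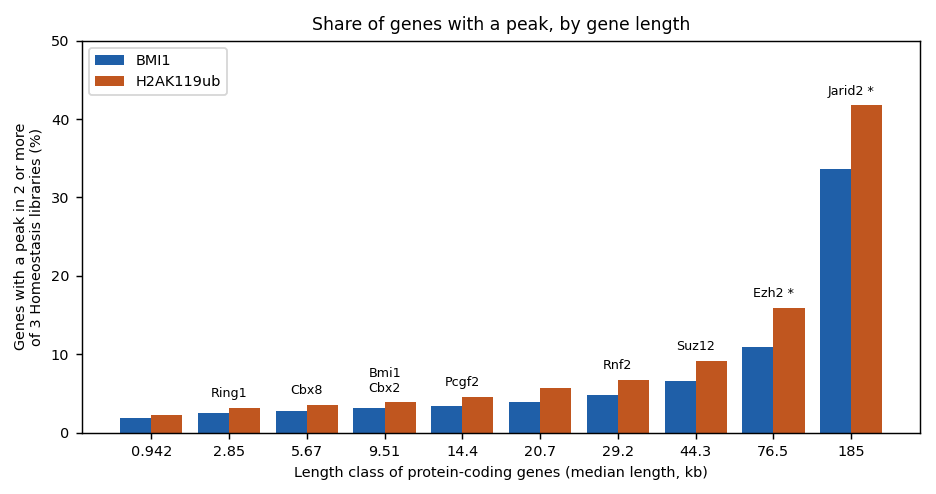
Percentage of protein-coding genes marked in at least 2 of 3 Homeostasis libraries (bars, blue for BMI1 and orange for H2AK119ub) in 10 classes of gene length (x axis, median length in kb), with each member written above its class and an asterisk on the members that had such peaks. Jarid2 sits in the class at 33.7% and 41.8%, and Bmi1 in a class at 3.11% and 3.84%.

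Per length of sequence, the 9 gene windows (0.453 Mb in all) held 6.62, 6.62 and 8.82 BMI1 peaks per Mb in the 3 Homeostasis libraries. For all protein-coding windows the values were 1.63, 2.49 and 1.37. The H2AK119ub densities at the members were 2.21, 6.62 and 6.62 peaks per Mb, against 0.645, 4.53 and 2.51 for all protein-coding windows. In each of the 6 libraries the member density was the higher, by 2.66 to 6.42 times for BMI1 and 1.46 to 3.42 times for H2AK119ub. All of it came from Ezh2 and Jarid2: the 7 other gene windows, 0.178 Mb together, held 0 peaks. Jarid2 held 11.6 ± 2.87 BMI1 peaks per Mb (SD, n = 3) and 8.3 ± 2.87 H2AK119ub peaks per Mb, and genes of its length class 1.99 ± 0.668 and 2.79 ± 2.13. Ezh2 held 13.3 ± 0 and 8.89 ± 7.70, and genes of its length class 1.60 ± 0.518 and 2.25 ± 1.72. Largely the same regions recurred in each list, so the 6 libraries do not repeat the result independently. The members were chosen with earlier results known, and no test was made. The member densities rest on 1 to 4 peaks per library. The 4 in BMI1 replicate 3, the library with the highest density, include neighbouring Jarid2 peaks 102 bp apart.

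**Figure D3:**
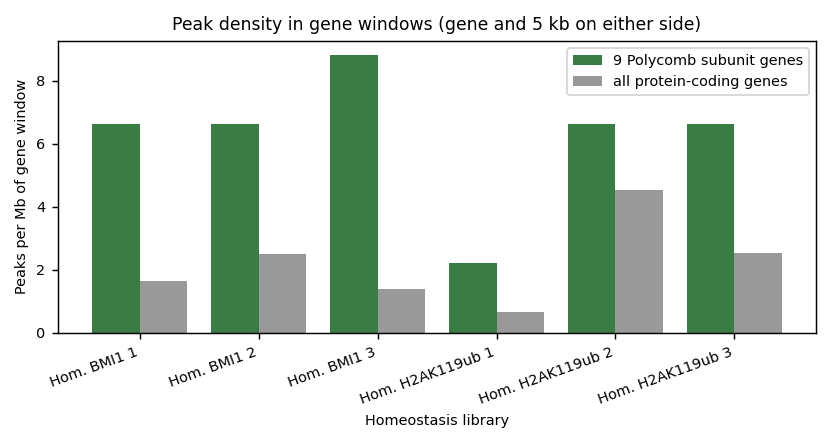
Peaks per Mb of gene window (gene body and 5 kb on either side) in the 6 Homeostasis libraries, for the 9 Polycomb subunit genes (green) and for all protein-coding genes (grey); each bar is 1 library. The green bar is the higher in each library, from 2.21 against 0.645 in H2AK119ub replicate 1 to 8.82 against 1.37 in BMI1 replicate 3. The value of 8.82 includes neighbouring Jarid2 peaks 102 bp apart.

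The 17 peaks in the member windows fell on 4 regions, and 3 of these held peaks of both antibodies. These 3 were in 5 or 6 lists, which at 3 lists per antibody must include both. In 1 or more Homeostasis libraries, 2717 protein-coding genes had a BMI1 peak, 3904 an H2AK119ub peak and 4222 a peak of either. Most genes with a BMI1 peak thus also had an H2AK119ub peak, so having both does not set the members apart. In Ezh2 (chromosome 6, 47530274 to 47595270) the single region spanned 47556129 to 47556239, inside the gene and 38.8 kb downstream of the start. It was in all 3 BMI1 lists and in 2 H2AK119ub lists, with peak centres within 10 bp of each other. In Jarid2 (chromosome 13, 44730774 to 44921643) a region at 44836007 to 44836121, 105 kb downstream of the first listed start, was in all 6 lists with centres within 14 bp. A further Jarid2 region at 44869569 to 44869698, 139 kb downstream of the start, was in 3 BMI1 and 2 H2AK119ub lists. The fourth region, at 44869801 to 44869901, was in BMI1 replicate 3 alone and lay 102 bp from the previous one. Of the 17 listed peaks, 14 were 101 bp wide and the widest was 130 bp. The median width was also 101 bp in each of the 12 lists, and most peaks of every list had exactly that width. The listed widths therefore do not show how far BMI1 or H2AK119ub extended at Ezh2 and Jarid2. No other annotated gene overlapped these regions, and whether they were exonic or intronic is not known here, as only gene boundaries and start sites were at hand.

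**Figure D4:**
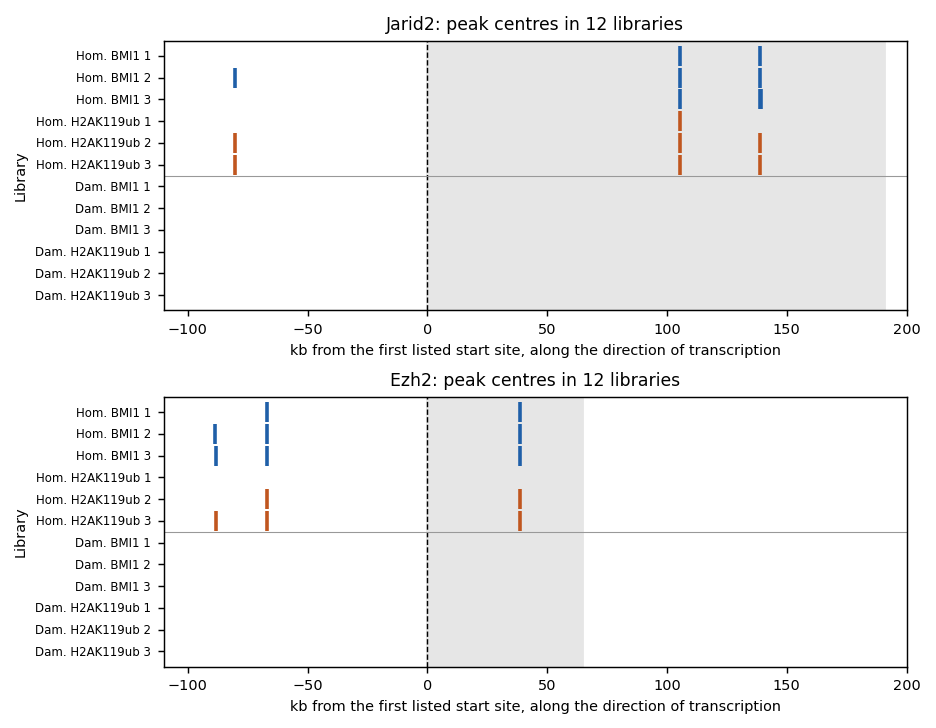
Centres of peaks (ticks, blue for BMI1 and orange for H2AK119ub) in each of 12 libraries (rows, Homeostasis above the grey line) around Jarid2 and Ezh2, as kb from the first listed start site (dashed) along the direction of transcription; grey marks the gene body. The Jarid2 ticks at 105 kb are in all 6 Homeostasis lists, the Ezh2 ticks at 38.8 kb are in 5, and no Damage list has a tick.

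Such closeness of centres was usual among regions in 5 or 6 of these lists, which made up 14.4% of all regions. Regions were formed from overlapping narrow peaks, which limits how far centres can spread. Of 17229 regions in the 6 Homeostasis lists, 1236 were in exactly 5 lists and 1242 in all 6. Among regions with a single peak per list, the centres spanned a median of 16 bp, both for those in 5 lists and for those in 6, against 10 bp at Ezh2 and 14 bp at Jarid2. Of the 1236 regions in 5 lists, 911 (73.7%) lacked H2AK119ub replicate 1, as the Ezh2 region and the Jarid2 region at 139 kb did. The pattern of counts at Ezh2 (1, 1, 1, 0, 1 and 1 peaks at homeostasis and 0 after damage) was shared by 189 other protein-coding genes over the 12 libraries. For Jarid2 no other gene had the same counts. The least distant, at a Euclidean distance of 1 over 12 libraries, were 5 genes, and those nearest to Jarid2 in length were Fam227b, Pdss2 and Hmgcll1.

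Outside the 5 kb windows, the distance to the nearest listed peak was taken for each member; signal below the unknown threshold of a list does not enter it. Within 100 kb, 7 of 9 members had a peak in some Homeostasis list, against 68.8% of protein-coding genes. In 1 or more libraries of an antibody, 4 had a BMI1 peak (50.1% of genes) and 6 an H2AK119ub peak (65.1% of genes). In 2 or more libraries of an antibody, 3 of 9 members had a BMI1 peak (32.7% of genes) and 5 of 9 an H2AK119ub peak (42% of genes). For Bmi1, the sole peak within 100 kb was in H2AK119ub replicate 2, 81.3 kb away. Just outside the limit, all 6 Homeostasis lists had a peak upstream of Bmi1 within a stretch of 244 bp (chromosome 2, 18574595 to 18574838), at 102.18 to 102.323 kb from the gene and in no annotated gene. BMI1 replicate 3 held its left part and the other 5 lists its right part, with 21 bp between them.

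Just inside the limit, the nearest BMI1 peaks to Pcgf2 lay at 94.6 kb in each BMI1 list. That region (chromosome 11, 97797048 to 97797151) was also in 2 H2AK119ub lists and lay on the tRNA gene n-TCgca56. H2AK119ub replicate 2, the longest list, had a nearer Pcgf2 peak at 22.7 kb, inside the neighbouring gene Pip4k2b. Cbx2 and Cbx8 are neighbours whose 5 kb windows overlap, so that they share their surroundings and are not independent. Their nearest peak was the same one, in H2AK119ub replicates 2 and 3, 46.1 kb from Cbx8 and 55.8 kb from Cbx2. In the BMI1 lists the nearest peaks to Cbx8 were 691.92, 691.915 and 1652.85 kb away in replicates 1, 2 and 3. For Rnf2 the nearest peak was 37.9 kb away in BMI1 replicate 1 and 112 kb away in 3 other lists. Ring1 (190 to 486 kb) and Suz12 (174 to 1578 kb) had no peak within 100 kb in any list. The members' counts within 100 kb lie near the shares of all genes, and no test was made of them.

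**Figure D5:**
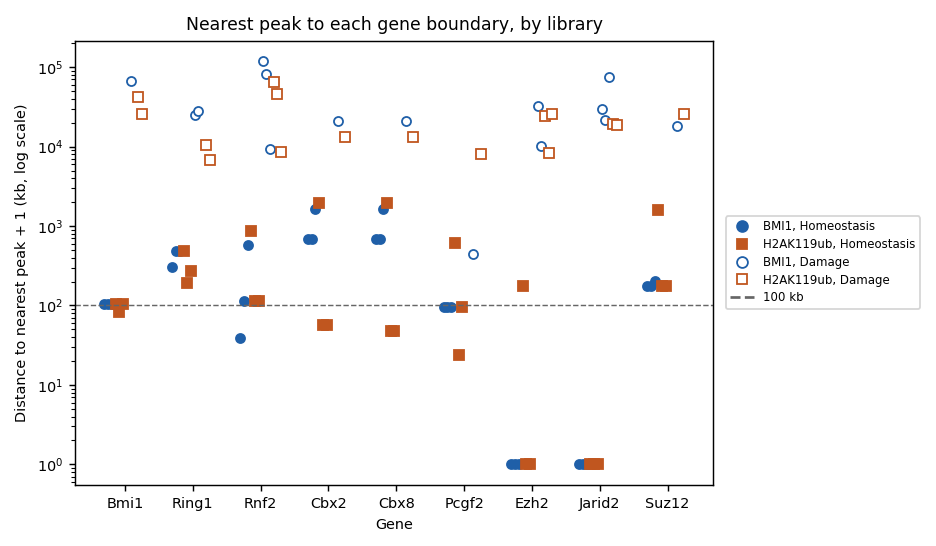
Distance from each gene boundary to the nearest peak, plus 1 kb, on a log scale, for 9 genes and 12 libraries (circles BMI1, squares H2AK119ub, filled Homeostasis, open Damage; a list with no peak on the chromosome has no symbol); the dashed line is 100 kb. Filled symbols at the bottom are peaks inside Ezh2 and Jarid2, those of Bmi1 cluster at 102 kb, and all open symbols lie above the line.

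After paraquat no member carried a peak in any of the 6 Damage lists, and none had one within 100 kb, a distance at which 1.13% of protein-coding genes had a Damage peak. The nearest Damage peak to a member was 443 kb from Pcgf2, and for the other 8 genes it was 6.69 Mb or farther. The Damage lists were short, with 19 to 68 peaks each. Of their 217 peaks 0 were at members, which allows a share of up to 1.38% by the rule of 3 counts and up to 1.69% by the exact 95% binomial limit. At homeostasis 17 of 39615 peaks were at members (0.0429%, exact 95% binomial interval 0.025 to 0.0687%). The limits and the interval count peaks of different lists as independent. The 17 peaks fell on only 4 regions that mostly recurred between lists, so the interval is too narrow. At the Homeostasis share, 217 peaks would hold 0.0931 peaks at these genes, so a loss particular to Polycomb genes was not detectable at this depth of listing. Of all protein-coding genes, 0.283% had a peak in any Damage list.

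The number of peaks per gene was then compared between treatments by a two-sided exact permutation test, with treatment permuted within antibody (400 arrangements), and adjusted by the Benjamini-Hochberg method over the 2675 protein-coding genes that held a peak in at least 2 of the 12 lists. Of these genes 20.8% (556) were called at an adjusted p under 0.05, all of them lower after damage. The number called was 1017 to 1426 when any 1 Homeostasis library was left out, 538 to 539 without a Damage BMI1 library, 364 to 365 without a Damage H2AK119ub library, and 0 by the exact permutation test with all 21887 genes tested (1012 at unadjusted p under 0.05). Among the members only Ezh2 and Jarid2 entered the test, and they did so through their Homeostasis peaks alone. With no peak in any Damage list, lower was the only direction open to them, so their p-values are given as a description and support no change of their own. Without the filter, over all 21887 genes, the adjusted p by the exact permutation test was 0.197 for Jarid2 and 0.434 for Ezh2. Jarid2 differed by -2.0 peaks per library, with means at homeostasis of 2.33 ± 0.577 BMI1 and 1.67 ± 0.577 H2AK119ub peaks (SD, n = 3 each) and 0 peaks in each Damage library (with the filter, exact permutation p = 0.005, adjusted p = 0.0241). Ezh2 differed by -0.833 peaks per library (with the filter, exact permutation p = 0.02, adjusted p = 0.0531, not passed). Within an antibody the smallest possible exact two-sided p is 0.1. Jarid2 reached it for both antibodies, while Ezh2 gave exact p = 0.1 for BMI1 and 0.4 for H2AK119ub.

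Whether Jarid2 or Ezh2 passed changed when a library was left out, in the same way for each library of a group. All values here are from the same exact permutation test with the filter. Leaving out a library also changed the arrangements and the number of genes called. The changes in passing therefore do not show that a particular library carried the result. For Ezh2 the unadjusted exact permutation p stayed 0.02 without Homeostasis BMI1 replicate 1, 2 or 3 or Homeostasis H2AK119ub replicate 2 or 3. It was 0.005 by that test without Homeostasis H2AK119ub replicate 1, the only Homeostasis list with no Ezh2 peak. Without Damage H2AK119ub replicate 1, 2 or 3 the adjusted p of Jarid2 was 0.0520, 0.0521 and 0.0521. Ezh2 passed by the exact permutation test when Homeostasis BMI1 replicate 1, 2 or 3 was left out (adjusted p = 0.0432, 0.0466 and 0.0422). It also passed by that exact test without Homeostasis H2AK119ub replicate 1, 2 or 3 (adjusted p = 0.0143, 0.0410 and 0.0464), and did not pass when any 1 Damage library was left out. Of the 2675 genes 2637 had no Damage peak, and the length of the lists, which differed between treatments for all genes, moved with this result; its part in it was not tested.

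The other genes of the Polycomb system, 34 in all, gave a setting for the members: 20 further PRC1 genes, 9 further PRC2 genes and 5 genes of H2AK119 deubiquitination. When 2 or more of the 3 libraries were required, 1 of 34 was marked for BMI1 (7.34% of all genes) and 4 of 34 for H2AK119ub (9.63% of all genes), and none had a peak in a Damage list. The shares of all genes were not matched for length. The 34 genes had a median length of 44.639 kb, against 17.169 kb for all protein-coding genes. Bcor, a corepressor subunit of a variant PRC1, was the sole gene besides Jarid2 in either set with a peak in all 6 Homeostasis lists, at 12106827 to 12106936 on the X chromosome, inside the gene and the lncRNA gene Gm46687. Like Jarid2 it had no Damage peak and entered the treatment test through its Homeostasis peaks alone, so its difference of 1 peak less per library is a description. Its adjusted p by the exact permutation test was 0.0241 with the filter (0.0143 to 0.0367 with any 1 library left out), 0.197 without the filter and 0.150 with the replicate number as a block. Asxl2, a partner of the deubiquitinase BAP1, had a region in 1 BMI1 and 2 H2AK119ub lists. Mga, a DNA-binding subunit of a variant PRC1, had 2 and 1 peaks in H2AK119ub replicates 2 and 3. Each Mga region was in 1 list only, so Mga counts as marked by gene and not by a shared position. Its regions at 119881877 to 119881977 and 119881991 to 119882091 on chromosome 2 lay close together without overlap. Asxl2 and Mga also entered the treatment test through Homeostasis peaks alone, so their values are a description. Neither passed (exact permutation, adjusted p = 0.266 and 0.470).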

How the data were processed

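Peaks of BMI1 and H2AK119ub were listed for 12 libraries, 3 per treatment and antibody; the 2 Input libraries were not analysed here. Per the submitters' processing notes, the authors used Bowtie2 and HOMER 4.8 on GRCm38; the sources used here give no settings, thresholds or use of Input. Each deposited list holds peak positions in bp and a deposited score of 1 for every peak, so it ranks nothing, and the depth is unknown; intervals cover the counting of peaks only. Peaks off the assembled chromosomes (143 of 39832) entered list lengths alone.

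From these, peaks overlapping each gene and 5 kb on either side by 1 bp or more were counted, with gene boundaries from RefSeq GRCm38.p6 (49943 genes, 21887 protein-coding). All 82 listed symbols matched. Genes were divided into 10 length classes. Regions were overlapping peaks of the Homeostasis lists. Treatments were compared by the exact permutation test with Benjamini-Hochberg adjustment. The members and lists were chosen with earlier results of these data known. The naming rule took all 9 members, and other Polycomb and HOX genes with peaks in 2 or more libraries, of which 1 is counted but not reported here. It also took the 3 genes closest to Jarid2 in counts and length. Alternatives were the window, the libraries required, peak centres, merging within 1 kb, the background, no filter, presence, a replicate block, distance from start sites and leaving out libraries. A score filter was not run. No lists were identical. Python 3.11.15, numpy 2.4.6, pandas 2.3.3, scipy 1.17.1 and matplotlib 3.10.9 were used, and the procedures were tested on simulated data.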

Additional observations from a re-analysis of the deposited data

How the results depend on the processing

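The count of members marked at homeostasis was 2 of 9 for each antibody under windows of 0, 2, 10 and 20 kb, with peak centres, with merging within 1 kb and without any library (2 to 2). With a window of 100 kb it was 4 for BMI1 and 6 for H2AK119ub, and with 3 of 3 libraries required it was 1 for H2AK119ub. The member density was 9.05 BMI1 peaks per Mb in gene bodies alone and 4.81 with a window of 20 kb, by construction with less or more flanking sequence. Leaving out a library gave 6.62 to 7.72 for BMI1 and 4.41 to 6.62 for H2AK119ub. From the listed start sites, the median distance to the nearest Jarid2 peak was 92.4 kb. In BMI1 replicates 1 and 3 and H2AK119ub replicate 1 that peak was inside the gene, at 104.7 kb. In BMI1 replicate 2 and H2AK119ub replicates 2 and 3 it was upstream of the gene, at 80.1 kb.

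Genes called between treatments numbered 364 to 1426 when a library was left out. They numbered 0 with no filter (1012 at unadjusted p under 0.05), since more genes were tested, and 0 with the replicate number as a block (556 at unadjusted p under 0.05), whose 64 arrangements allow no exact p under 0.0313. With the replicate block, Jarid2 kept a difference of -2.0 and had an adjusted p of 0.150 by the exact permutation test, and its difference was also -2.0 with no filter. Over the left-out libraries its difference was -2.17 to -1.83, and that of Ezh2 was -1.0 to -0.75. The labels do not say what the replicate numbers mark. Deviations of same-numbered Homeostasis and Damage libraries correlated at -0.0340 to 0.0286 across genes, and those of other pairs at -0.0369 to 0.0539. The Damage lists marked only 5 to 21 genes each, so these correlations do not show whether the numbers pair the libraries. The calling threshold behind each list is not known, so a gene without a peak is not a gene shown to lack signal.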

Other observations

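The HOX genes encode transcription factors that pattern the body axis and are classical Polycomb targets. Few had a peak within 5 kb in 2 or more of 3 libraries, and the same held for other genes of their length. Of the 39 genes of the 4 clusters, 1 had a peak within 5 kb in 2 or more of 3 libraries for BMI1 and 1 for H2AK119ub, against 7.34% and 9.63% of protein-coding genes, which are longer (median 17.169 kb, against 3.737 kb for HOX genes). In the length class of 1.542 to 4.168 kb, which holds most HOX genes, 2.51% of protein-coding genes were so marked for BMI1 and 3.11% for H2AK119ub. Around start sites the HOX share was the larger, and this was not tested. There, 3 of 22 HOX genes with a listed start had a peak within 5 kb in any Homeostasis library, against 5.23% of protein-coding genes. The gene marked in 2 or more libraries was Hoxb1 for both, with a region at 96364338 to 96364448 on chromosome 11, 1.298 kb from the gene. The region was in BMI1 replicates 1 and 2 and in H2AK119ub replicates 2 and 3. Hoxa9, Hoxa10, Hoxb3, Hoxb4 and Hoxc11 had a peak in a single H2AK119ub list each. The 5 kb windows of Hoxa9 and Hoxa10 overlap and Hoxb4 lies inside Hoxb3, so that these genes are not independent. In all, 6 of 39 HOX genes had an H2AK119ub peak in 1 or more libraries, against 17.8% of protein-coding genes. That share was not matched for length. No HOX gene had a peak in a Damage list. Hoxb1 entered the treatment test through its Homeostasis peaks alone, so its values are a description. It did not pass (0.667 fewer peaks per library after damage, exact permutation p = 0.08, adjusted p = 0.147).

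Beyond the Ezh2 gene, a region 66.5 kb from its start-side boundary, in no annotated gene, was in the same 5 lists as the region inside it (chromosome 6, 47661747 to 47661864). Upstream of Jarid2, a region 80.1 kb from the gene was in BMI1 replicate 2 and in H2AK119ub replicates 2 and 3 (chromosome 13, 44650566 to 44650679).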
